A study of Macaca mulatta with 26 samples.

Results

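The genes described here are those of the cytosolic ribosomal proteins, chosen by name alone: a gene was a member if its symbol was RPL or RPS followed by a number, with or without a final A, X or L, or RPLP0, RPLP1, RPLP2 or RPSA. By this rule 82 of the 50308 genes in the table were members, 49 with a large subunit name and 33 with a small subunit name. Numbered pseudogenes and mitochondrial ribosomal proteins were not members. Levels are FPKM, a read count per gene length and per library size.

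The cytosolic ribosome is built from a small subunit, which reads the messenger RNA, and a large subunit, which forms the peptide bond. Each subunit joins ribosomal RNA to a set of ribosomal proteins that are needed in about equal numbers, and the messenger RNAs of most of these proteins share a pyrimidine-rich start that ties their translation to growth signals. A few members have paralogs that are used in particular tissues, such as testis or striated muscle.

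Libraries came from the melatonin-secreting pineal gland and the light-sensing retina of macaques (Macaca mulatta) of both sexes, aged 3 to 33 years. The 12 animals, 3 per time, were collected over 11 years under 12 h of light and 12 h of darkness, with dawn taken as hours 5 to 7, mid-day as hours 11 to 13, dusk as hours 17 to 19 and midnight as hours 23 to 1. Every time had 3 libraries of each tissue. As controls there were 2 pools, mixed from the RNA of 16 further tissues at mid-day or at midnight. No group carried a treatment or an engineered allele.

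Reads assigned to genes numbered 11.7 to 16.1 M in the pineal gland and 16.9 to 21.4 M in the retina, with 23.0 M in the mid-day pool and 16.2 M in the midnight pool. In their sums, markers separated the labelled tissues. The 5 pineal markers summed to 1115 to 1974 FPKM in pineal libraries and 305 to 486 in retina. The 6 rod and cone markers summed to 39.6 to 136 in pineal libraries and 3298 to 4279 in retina. Taken singly, 3 of the 5 pineal markers were higher in pineal gland (limma adjusted p under 0.05). CRX was lower, at -0.57 on the log2 scale, and AANAT, at -0.14, did not pass. The third pineal library from dusk stood apart. It held 778 FPKM over 6 testis genes, against 0.0268 to 0.625 in the other 11 pineal libraries. The pools differed in the same genes, with 8.03 FPKM at mid-day and 1793 at midnight, although the labels list testis among the tissues of both. The cause was not tested, and it touches every comparison with the pools below. In retina dawn 2 and mid-day 1, 44.8% and 45.7% of genes were at 0, against 33.5% to 35.2% in the other 10 retina libraries.

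The 82 members together were lower in the pineal gland than in the retina, and lower in both than in the pools. Their summed FPKM was 954 at the lowest, 1014 at the median and 1224 at the highest in pineal libraries. In retina libraries it was 1372, 1483 and 1564. The pools held 1655 and 1729, so the 3 kinds of library did not overlap. Reads on the members' numbered pseudogenes are not in these sums. Their mean share of assigned reads was 0.0490% in pineal gland, 0.0752% in retina and 0.0666% in the pools. For the members themselves it was 0.260%, 0.361% and 0.408%. The mean summed FPKM of the members was 1.40 times as high in retina as in pineal gland. In the pools it was 1.60 times as high as in pineal gland. In bulk tissue, fewer cells with much of this RNA and less of it per cell cannot be told apart. Markers of some other cells differed too. Summed over 4 genes each, oligodendrocyte markers were 18.4 to 286 FPKM in pineal libraries and 4.92 to 8.34 in retina. Choroid plexus markers were 36.1 to 366 and 10.1 to 17.7. Other marker sums overlapped between the tissues: astrocyte and Muller glia (223 to 593 and 289 to 430), pigment epithelium (14.1 to 47.8 and 2.33 to 67.6) and blood (4.23 to 52.6 and 4.08 to 85.4). The part of any of these cells in the difference was not tested.

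**Figure D1:**
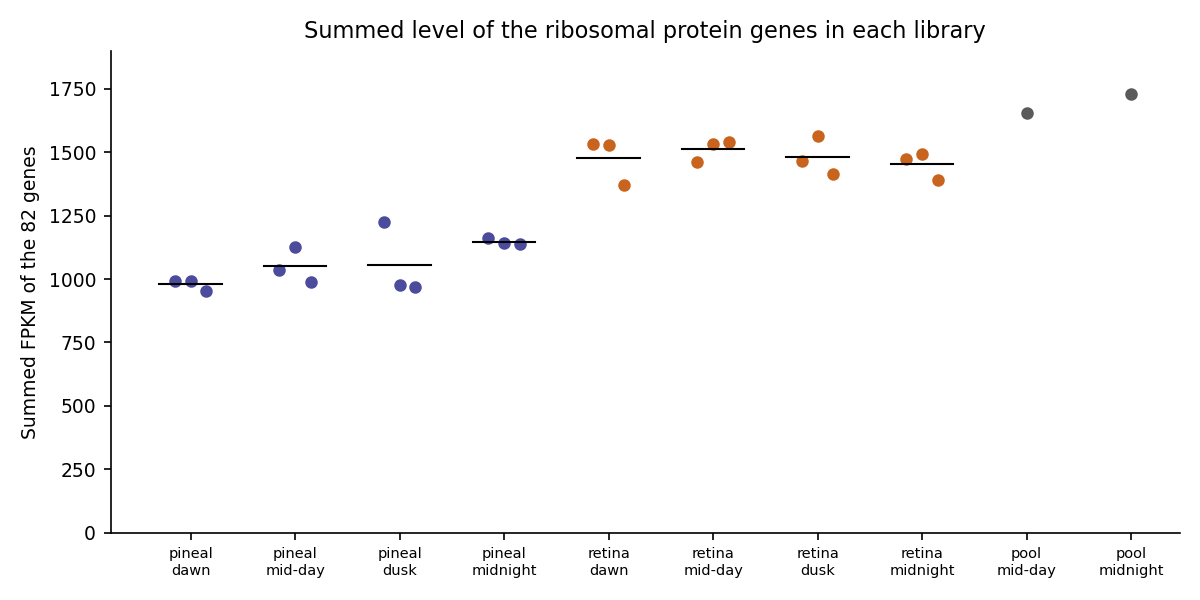
Summed FPKM of the 82 ribosomal protein genes (vertical axis) in each library, by tissue and time (horizontal axis); points are libraries and lines are means of 3. All 12 pineal libraries lie between 954 and 1224, below the lowest retina library at 1372.

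Both subunits showed the difference. Large subunit names summed to 590 ± 55.2 FPKM (SD, n = 12) in pineal gland and 785 ± 34.5 (n = 12) in retina. Small subunit names summed to 469 ± 43.6 and 696 ± 37.4. The ratio of the large to the small sum ran from 1.184 to 1.428 in pineal libraries and from 1.023 to 1.176 in retina libraries, without overlap.

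Single members covered a wide range of levels. In retina 8 members averaged at least 50 FPKM, 36 lay between 10 and 50, 23 between 1 and 10, and 15 under 1. In pineal gland those numbers were 2, 34, 33 and 13. RPS12, a small subunit protein, was highest in retina at 85.5 ± 7.64 FPKM (SD, n = 12), and RPL5, which carries 5S ribosomal RNA into the large subunit, was highest in pineal gland at 61.6 ± 5.0 (n = 12). At the other end 13 members averaged under 1 FPKM in both tissues. Among them were RPL4, RPL10A, RPS2, RPS9, RPS26 and RPLP1, all proteins of every ribosome. Macaque reads were counted on human gene models, and the part of this in the level of any member was not tested.

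Some of these low genes had more reads on their numbered pseudogenes, and some had almost none there. The table held 738 numbered pseudogenes named after 72 of the 82 members. In pineal gland 15 members had more reads on those pseudogenes than on the member itself, and in retina also 15. For RPL4 the pseudogenes took 88.9% of the summed reads in pineal gland and 88.0% in retina, for RPS2 78.2% and 87.0%, and for RPS26 75.9% and 86.5%. RPL10A had 0 reads on its pseudogenes in both tissues, while RPS9 and RPLP1 had 0 in pineal gland, and 14.3% and 10.7% of their reads in retina. How reads of near-identical copies were divided was not tested, and the levels of members with many such reads are uncertain.

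Between pineal gland and retina 58 of 70 tested members were called, of which 50 were lower in pineal gland. That is about the share of all genes that was called, 83%. RPS14, a small subunit protein, showed the largest fall. Its level was 12.2 at the lowest, 13.6 at the median and 16.8 FPKM at the highest in pineal libraries, and 39.1, 42.5 and 47.9 in retina libraries. The groups did not overlap, and the pools, at 48.9 and 52.1, were above both. The log2 difference was -1.57 ± 0.05 (SE; limma, Benjamini-Hochberg adjusted p = 1.71e-15).

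Of the 70 members that passed the filter of 1 FPKM in 3 libraries, 50 were lower, 8 were higher and 12 were not called. Of all 24740 genes tested 48.1% were called lower in pineal gland and 34.9% higher. RPL39L and RPL23 passed the filter through pineal libraries alone, and without them 57 of 68 members were called, 50 lower and 7 higher. Both tissues were taken from the same 12 animals, but the labels do not say which libraries share one, so the tests treat all libraries as independent. The median log2 difference was -0.38 over the members and -0.18 over all genes tested. Among small subunit names 27 of 28 were called, 25 of them lower, and among large subunit names 31 of 42 were called, again 25 lower. In 27 of the 70 members every pineal library was below every retina library, against 14% of all genes, and in 2 every pineal library was above, against 16.8%. Among the 12 members not tested were RPL10A, RPS26, RPL10L, RPL4, RPLP1, RPL3L, RPS2, RPL26, RPS9 and RPL36A.

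**Figure D2:**
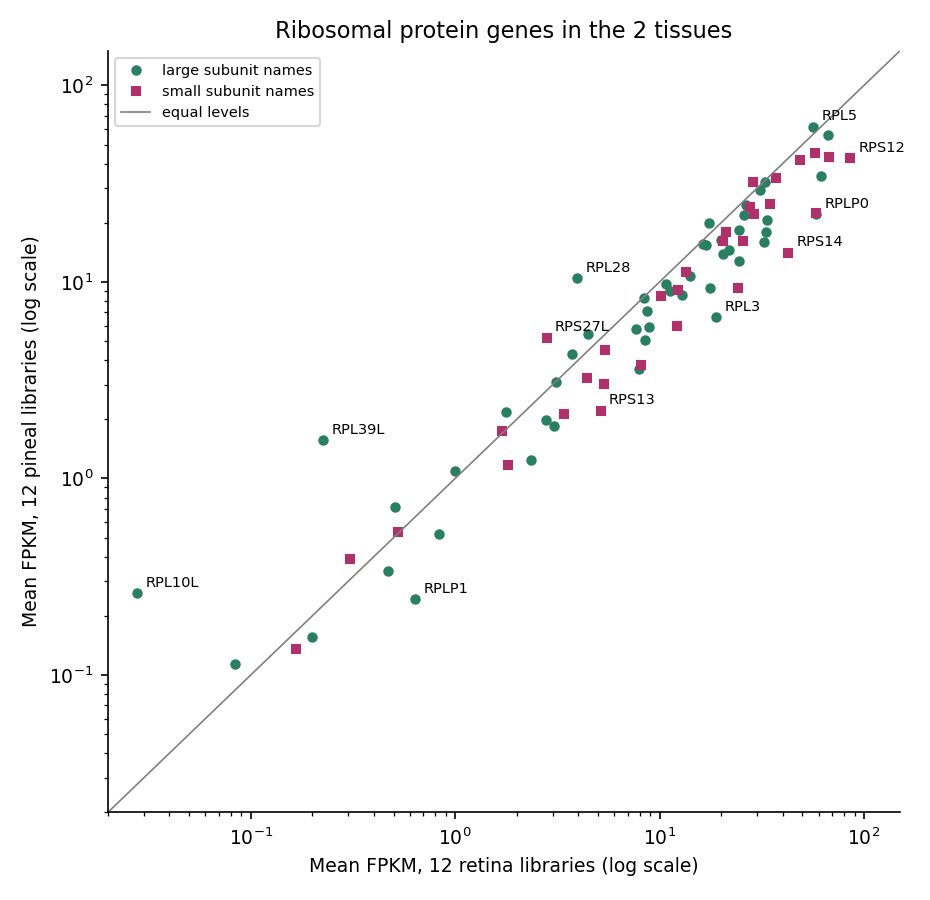
Mean FPKM of each member with a mean above 0 in both tissues, over 12 pineal libraries (vertical axis, log scale) against 12 retina libraries (horizontal axis, log scale), with a line of equal levels. Most points lie below the line, and RPL28, RPS27L, RPL39L and RPL10L lie above it. The pineal mean of RPL10L rests on dusk 3 alone, at 3.12 FPKM, with 0 in the other 11 pineal libraries.

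Among large subunit proteins the largest falls were in RPL3, which lies near the peptidyl transferase centre, and in RPLP0 of the stalk. RPL3 was 5.74, 6.38 and 8.45 FPKM (lowest, median, highest) in pineal gland and 16.7, 18.8 and 21.6 in retina. The log2 difference was -1.45 ± 0.05 (SE; limma adjusted p = 1.36e-14). In the pools RPL3 was 12.6 and 12.5 FPKM, between the tissues. RPL10, which joins the large subunit late in its assembly, differed by -1.02 and RPL30 by -0.998 on the log2 scale.

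The stalk of the large subunit, which recruits the elongation factors, is made of RPLP0, RPLP1 and RPLP2. RPLP0 was 18.9, 20.8 and 27.0 FPKM in pineal gland and 51.0, 58.2 and 65.2 in retina, with a log2 difference of -1.39 ± 0.06 (SE; limma adjusted p = 3.77e-14). Its partner RPLP2 was 15.5 ± 1.72 FPKM (SD, n = 12) in pineal gland and 16.8 ± 2.20 in retina, and those ranges overlapped. RPLP2 was still called lower, with a log2 difference of -0.11 ± 0.05 (SE; limma adjusted p = 0.0408). RPLP1 did not pass the filter, at 0.243 ± 0.144 and 0.640 ± 0.181 FPKM.

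Among the other small subunit proteins with large falls were RPS27, RPS13, RPS29 and RPS12. RPS27, a zinc finger protein, was 19.8, 21.7 and 26.3 FPKM in pineal gland and 40.3, 59.9 and 72.3 in retina. The log2 difference was -1.34 for RPS27, and its ranges did not overlap between the tissues. RPS13 differed by -1.07, RPS29 by -1.01 and RPS12 by -0.99. RPSA, also known as the laminin receptor, was 3.01 ± 0.352 FPKM (SD, n = 12) in pineal gland and 5.34 ± 0.412 in retina, without overlap.

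RPL28, a large subunit protein, was higher in pineal gland. It was 8.64, 10.8 and 12.4 FPKM in pineal gland, 3.45, 3.94 and 4.72 in retina, and 6.06 and 6.17 in the pools. Every pineal library was above both pools and every retina library below them. The log2 difference between the tissues was 1.30 ± 0.07 (SE; limma adjusted p = 1.66e-12).

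Among the other members called higher in pineal gland were RPS27L, RPL18, RPL17, RPL39 and RPL5. The last 4 of these differed by 0.26 or less on the log2 scale and overlapped between the tissues. With the reads of their numbered pseudogenes added, RPL17 was called lower, at -0.24, and RPL39 was no longer called, at -0.0033. The call of RPL17 as higher was also lost without retina dawn 2 (0.20), dusk 1 (0.20) or midnight 1 (0.21). It was lost too without pineal midnight 1 (0.18) and with median-of-ratios scaling (0.20). The call of RPL5 was lost in 1 alternative.

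**Figure D3:**
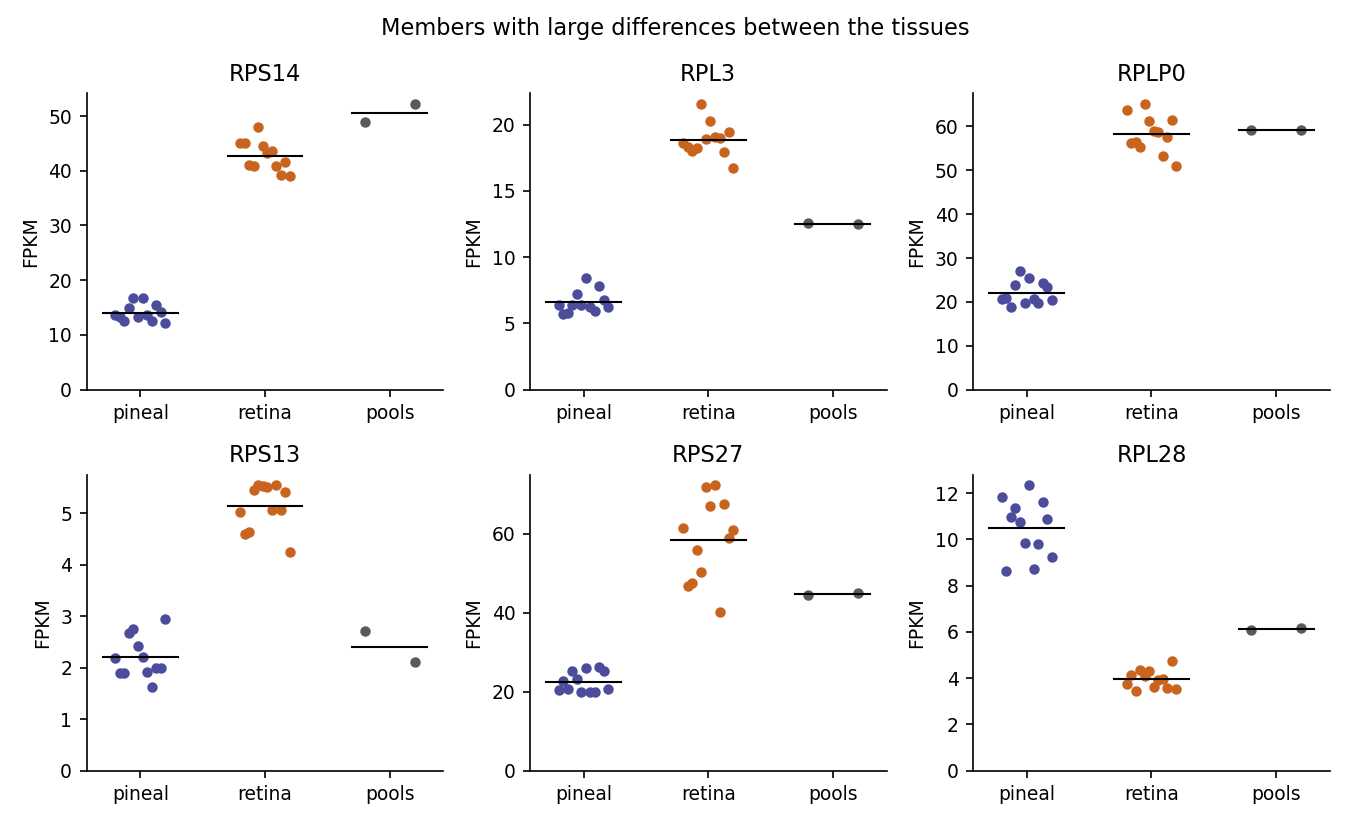
FPKM (vertical axis, from 0) of 6 members in 12 pineal libraries, 12 retina libraries and 2 pools; points are libraries and lines are means. RPS14, RPL3, RPLP0, RPS13 and RPS27 are lower in every pineal library than in every retina library, and RPL28 is higher.

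Against the pools, which share their 2 libraries between both comparisons, the pineal gland had 46 members lower and 1 higher of 72 tested, and the retina 22 lower and 6 higher of 70. Of all genes tested 52.8% were called for the pineal gland, 29.1% lower and 23.8% higher. For the retina 62.5% were called, 29% lower and 33.5% higher. All pineal libraries were below both pools in 45 members and above both in 2, where the shares of all genes were 25.7% and 21%. All retina libraries were below both pools in 21 members and above both in 7, where the shares were 26.4% and 21.1%. The median log2 difference of the members was -0.60 for the pineal gland, beside -0.08 over all genes, and -0.18 for the retina, beside 0.11. RPL3L passed the filter through the pools alone, as did RPL23 through the pineal gland and RPL36A through the retina. Without them 45 of 70 members were lower and 1 higher in the pineal gland, and 21 of 68 lower and 6 higher in the retina. Without the midnight pool 35 members were called for the pineal gland and 16 for the retina.

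With RPL3L set aside, the largest falls against the pools in the pineal gland included RPS14 at -1.81, RPLP0 at -1.41, RPL7 at -1.40, RPS18 at -1.27, RPS12 at -1.19, RPL13 at -1.09, RPL30 at -1.07 and RPL8 at -1.06 on the log2 scale. RPL28 was the 1 member called higher, at 0.73 ± 0.14 (SE; limma adjusted p = 0.000861). In the retina RPS13 was higher by 0.96, RPL12 by 0.63, RPL3 by 0.57 and RPS27A, made as a fusion with ubiquitin, by 0.44. RPL27A was higher by 0.21 and RPL35A by 0.19. The call of RPL27A was lost in 10 of 22 alternatives, among them leaving out either pool or any of 7 retina libraries, and that of RPL35A was lost without either pool. The calls of RPL12 and RPS23 were lost without the midnight pool, at 0.59 and -0.42. With RPL3L set aside, the retina's largest falls included RPS27L at -0.86, RPL13 at -0.71, RPL28 at -0.58, RPS25 at -0.53, RPL7 at -0.50, RPL5 at -0.50, RPL35 at -0.49 and RPS23 at -0.48.

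Of 4 paralogs of other members, RPL3L, RPL10L and RPL39L were highest in a pool, and RPS27L was found in every library. RPL3L, the striated muscle paralog of RPL3, was 12.8 FPKM in the mid-day pool and 8.78 in the midnight pool. In retina it had 0 reads in all 12 libraries, and a count of 3 reads per library would allow at most 0.114 FPKM, so the lower pool was at least 76.7-fold higher. In pineal gland it was at 0 in 9 of 12 libraries, with 1 read at most in the others.

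RPL10L, the testis paralog of RPL10, had 237 reads in the midnight pool, or 18.1 FPKM, and 1 read in the mid-day pool. It had 34 reads, or 3.12 FPKM, in pineal dusk 3 and 0 in the other 11 pineal libraries. RPL39L, a paralog of RPL39 also used in testis, was 30.4 FPKM in the midnight pool and 0.516 in the mid-day pool. It was 6.45 FPKM in pineal dusk 3 and 0.305 to 2.78 in the other 11 pineal libraries, against 0 to 0.391 in retina. The libraries highest in RPL10L and RPL39L were those that held testis genes, at 778 and 1793 FPKM; their part in the level of these paralogs was not tested. Since no retina library reached the filter's 1 FPKM, the difference of RPL39L between the tissues is given by these levels alone.

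RPS27L, a paralog of RPS27 that responds to p53, was 3.49, 4.89 and 8.22 FPKM in pineal gland and 1.93, 2.88 and 3.47 in retina, without overlap. The log2 difference was 0.77 ± 0.10 (SE; limma adjusted p = 1.18e-06), while its parent RPS27 was lower in pineal gland. The pools held 5.47 and 5.40 FPKM.

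**Figure D4:**
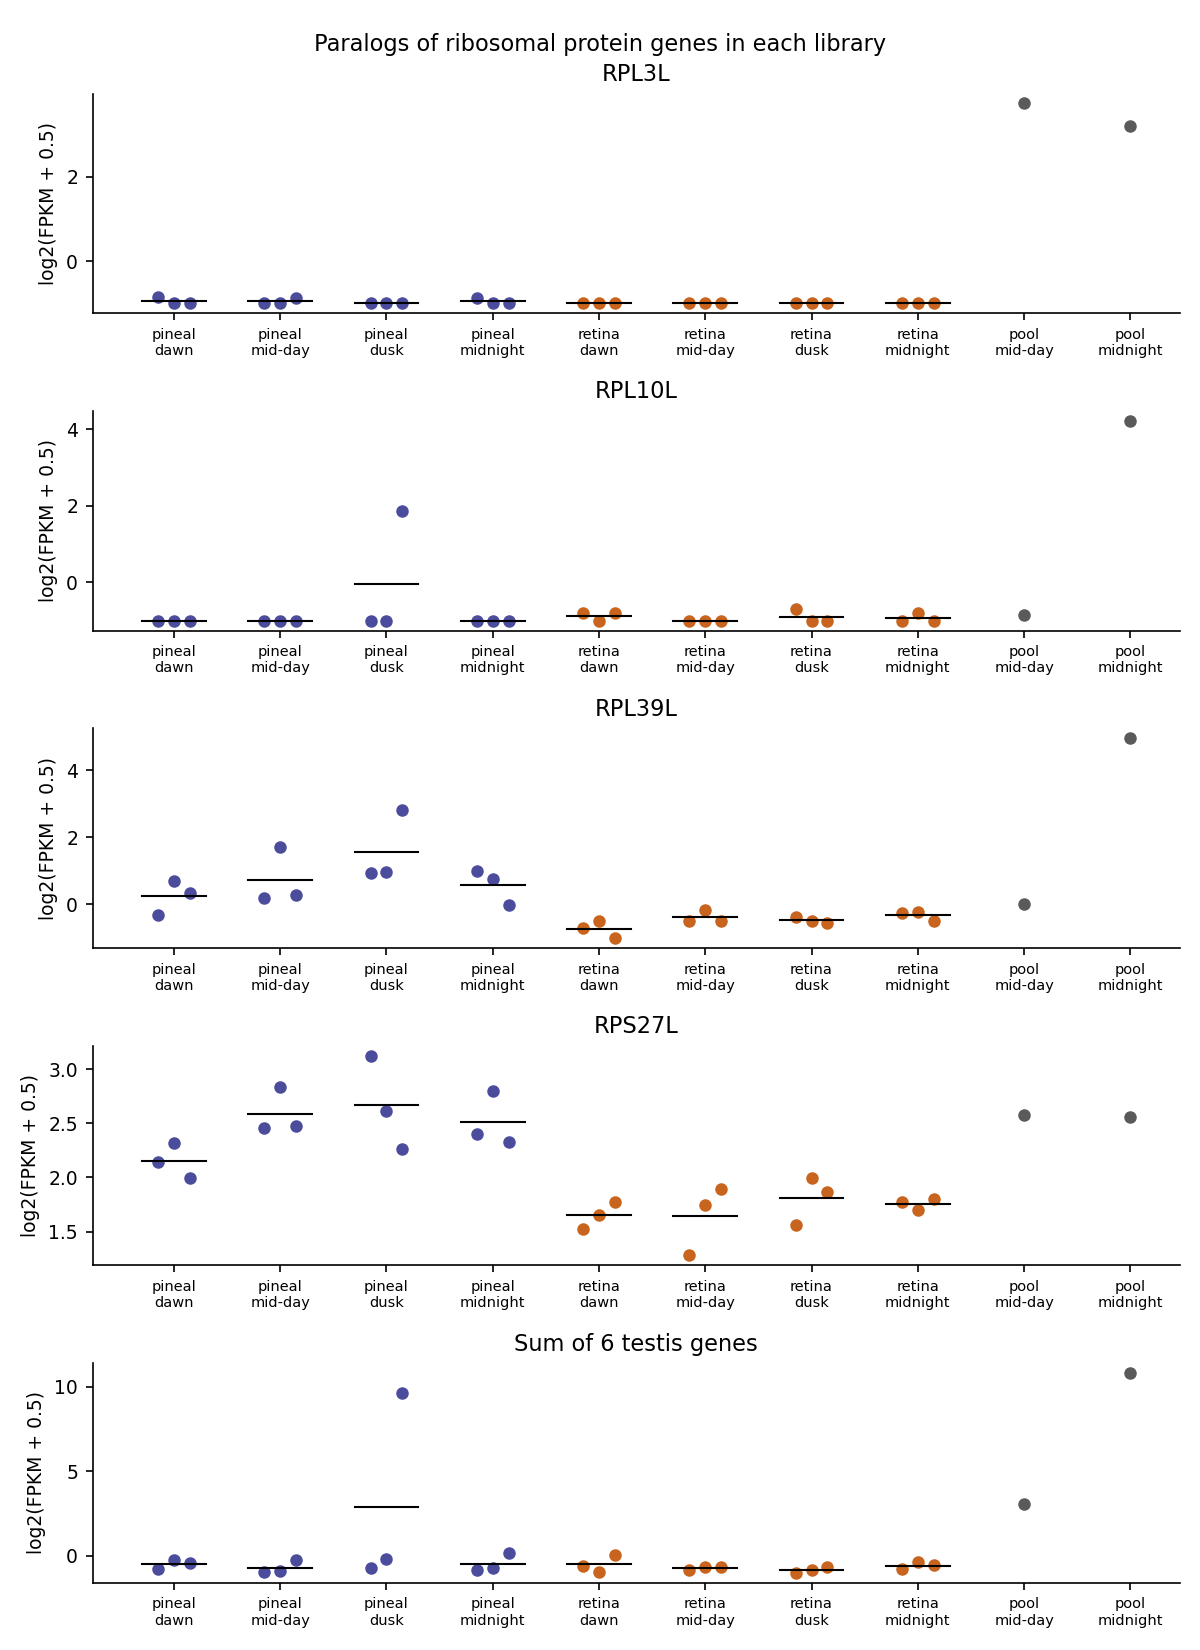
Level as log2(FPKM + 0.5) (vertical axis) of 4 paralogs and of the sum of 6 testis genes in each library, by tissue and time (horizontal axis); points are libraries and lines are means of 3. RPL10L and RPL39L are highest in the midnight pool and then in the dusk library of pineal gland that holds 778 FPKM of testis genes.

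Between times of day 1 member was called in pineal gland and 0 in retina. The summed FPKM of the 82 genes in pineal gland ran from 954 to 992 at dawn, 990 to 1126 at mid-day, 969 to 1224 at dusk and 1138 to 1162 at midnight, so that all 3 dawn libraries were below all 3 midnight libraries. In retina the sums of all 4 times overlapped, between 1372 and 1564. These sums were not tested. In retina no member was called in any of the 6 pairs of times or in the F test over the 4 times (limma, 68 members tested), where 0% of all genes were called in the F test and 0% to 0.0274% in the pairs. In that F test 3 members had an unadjusted p under 0.05, and 2 to 4 did in each pair. In pineal gland no member was called in the F test, where 0.105% of all genes were called and 7 of 70 members had an unadjusted p under 0.05. The test of whether the 4-time profile differed between the tissues called no member and 0.218% of all genes. In it 5 members had an unadjusted limma p under 0.05. The shares of all genes under an unadjusted p of 0.05 are not reported here. Nothing particular to the members is therefore read from these unadjusted counts.

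Among the pairs of times in pineal gland, no member was called for mid-day against dawn (0.0314% of all genes called), dusk against mid-day (0.0209%), midnight against dusk (0.0576%), dawn against midnight (0%) or midnight against mid-day (0.0419%), and 2 to 11 members had an unadjusted limma p under 0.05, the most for dawn against midnight. For these unadjusted counts too the shares of all genes are not reported here, and nothing particular to the members is read from them. The 1 call, for dusk against dawn, was in RPL14, a large subunit protein. At dusk the pineal libraries held 9.79, 5.90 and 12.6 FPKM. At dawn they held 25.7, 25.4 and 18.5, at mid-day 21.6, 23.1 and 18.7, and at midnight 21.2, 27.9 and 29.5. All 3 dusk libraries were below the other 9. The log2 difference of dusk from dawn was -1.30 ± 0.24 (SE; limma adjusted p = 0.0476), where 0.586% of all genes were called. The call was lost when any of 10 of the 12 libraries was left out, with the log2 difference between -1.53 and -1.01. In the authors' deposited table the same comparison had a log2 fold change of -1.19 and an adjusted p of 0.000187.

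RPL14P1, a pseudogene named after RPL14, had more reads at dusk than at dawn, with 106, 131 and 76 reads in the dusk libraries and 26, 24 and 13 at dawn. Its part in the fall of RPL14 was not tested. Adding both, dusk held 30.2, 22.2 and 35.7 RPM (reads scaled to the library's assigned total) and dawn 63.2, 62.5 and 45.1, still without overlap. In retina RPL14 ran from 7.14 to 27.6 FPKM with no called difference between times. In the pools, RPL14 was 29.4 FPKM at mid-day with 272 reads on RPL14P1, and 10.8 at midnight with 684.

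The smallest p-values in the pineal F test belonged to RPL14 (limma adjusted p = 0.0774), RPL13 (0.139), RPL12 (0.193), RPL22 (0.289) and RPL23 (0.291). In the retina they belonged to RPLP2 (limma adjusted p = 0.265), RPS4X (0.453), RPL41 (0.465), RPL37 (0.552) and RPS24 (0.571). For the difference in profile between the tissues the smallest included RPL12 (limma adjusted p = 0.187), RPLP2 (0.218), RPL13 (0.302) and RPS7 (0.447).

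In the authors' deposited tables of time pairs, few members passed an adjusted p of 0.05. In their pineal tables RPL23 was called higher for day against dawn (1.53% of all genes called), and RPL14 lower for dusk against day (0.126%). RPL12, a stalk-base protein, and RPL14 were called higher for night against dusk (5.04%) and lower for dusk against dawn (6.15%). For day against night (1.01%) RPL13 was called lower and RPL23 higher, and no member was called for dawn against night (1.41%). In their retina tables RPL41 was called higher for night against dusk (2.54%), and for dusk against dawn (4.05%) RPL41 was called lower and RPS4X higher. No member was called in retina for day against dawn (0.851%), dusk against day (0.0809%), dawn against night (0.366%) or night against day (2.44%). The 12 tables share libraries with each other.

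RPL41, the smallest ribosomal protein, lay at 1 of 2 levels in each library. In pineal gland 8 libraries lay between 34.8 and 37.5 FPKM and 4 between 78.9 and 117. In retina 5 lay between 35.2 and 42.3 and 7 between 78.6 and 93.5. No library of either tissue lay between, and both pools, at 85.5 and 85.0, were on the upper level. In retina all 3 dusk libraries were low, at 35.2, 39.7 and 37.5 FPKM, and all 3 midnight libraries high, at 86.9, 80.6 and 78.6, while dawn and mid-day held both levels. The log2 difference of midnight from dusk was 1.12 ± 0.35 (SE; limma adjusted p = 0.284). In the authors' deposited table it was 1.06 with an adjusted p of 2.79e-19. In pineal gland the upper level was found in 1 dawn, 0 mid-day, 1 dusk and 2 midnight libraries. A gap as wide in both tissues was found in 0.614% of 16446 genes; the bound of 60 FPKM between the levels was set after the values were seen.

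**Figure D5:**
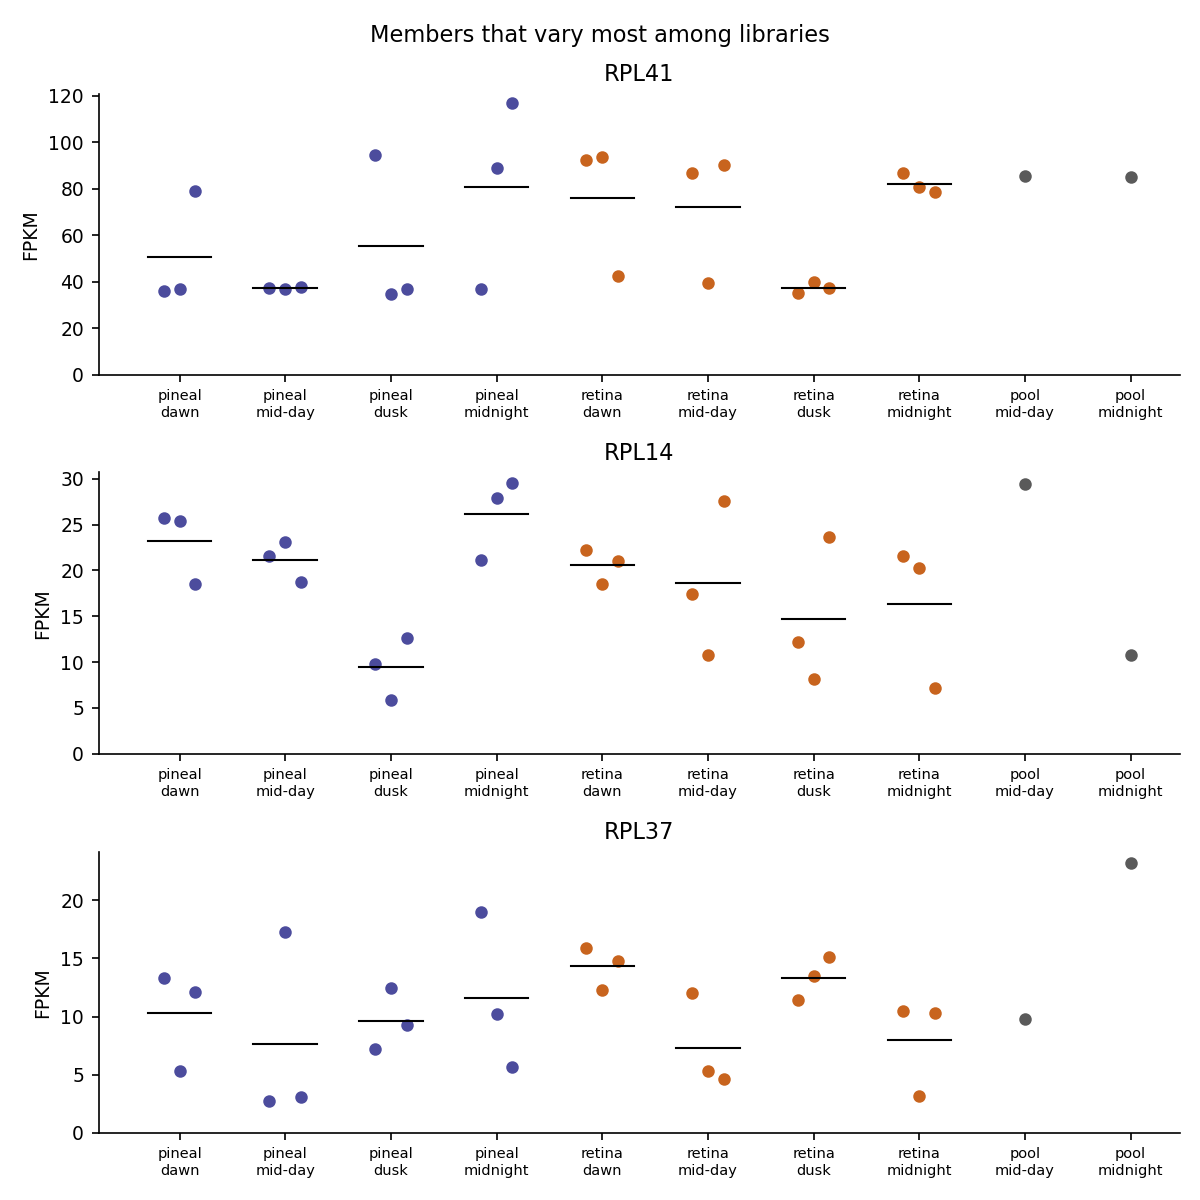
FPKM (vertical axis, from 0) of RPL41, RPL14 and RPL37 in each library, by tissue and time (horizontal axis); points are libraries and lines are means of 3. RPL41 has no tissue library between 42.3 and 78.6 FPKM, and RPL14 is lowest in pineal gland at dusk.

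RPL37, a large subunit protein, also varied widely, from 2.72 to 19 FPKM in pineal gland and from 3.17 to 15.9 in retina. Libraries of 1 tissue and time could differ several-fold, such as 2.72, 17.2 and 3.04 in pineal gland at mid-day. The numbered pseudogenes of RPL37 took 63.0% of the summed reads in pineal gland and 48.6% in retina. With the reads of 1 of them, RPL37P23, added, the same 3 libraries held 34.8, 61.5 and 32.1 RPM. For RPL37 alone they held 4.51, 28.6 and 5.04 RPM. The part of the pseudogenes in this spread was not tested. The SD of log2(FPKM + 0.5) had a median of 0.16 over 68 members and 0.25 over all 16446 genes in pineal gland, and 0.13 and 0.20 in retina.

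Genes that work with the ribosome differed in both directions between the tissues. Of 7 proteins of the ribosome whose names fall outside the rule, 6 were tested and 3 were lower in pineal gland than in retina, with a median of -0.35, where 83% of all genes were called and 48.1% were lower. FAU, the fused source of a small subunit protein, was 18.8 ± 1.89 FPKM (SD, n = 12) in pineal gland and 40.4 ± 2.66 in retina, and GNB2L1, the scaffold protein also called RACK1, 31.1 ± 4.32 and 51.1 ± 3.80.

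The counts of these lists stand beside 34.9% of all genes called higher in pineal gland and 48.1% lower, and nothing particular to a list is read from them. Of 6 elongation factors tested, 2 were higher in pineal gland and 4 lower, with a median of -0.23 and, among the most abundant, EEF2 at -0.16 and EEF1A2 at -0.64 on the log2 scale. TPT1, which was kept in the same list but is not an elongation factor, differed by 1.60. Initiation factors had 10 of 26 higher and 12 lower, with a median of -0.05 and EIF4A2 at -0.19, EIF4G2 at 0.02 (not called) and EIF4H at -0.60. Ribosome biogenesis genes had 16 of 31 higher and 8 lower, with a median of 0.15, and included RRP1B at -2.22, NCL at 0.44 and NOP10 at 0.75. Regulators of pyrimidine-rich messages had 9 of 22 higher and 10 lower, with CNBP at 0.06 (not called), LARP4 at 0.17 and TIA1 at -1.0. Genes of ribosome turnover had 3 of 9 higher and 3 lower, with HUWE1 at 0.43, ASCC3 at -0.27 and NEMF at 0.71. Chaperones of ribosomal proteins had 0 of 6 higher and 4 lower, with NAP1L1 at -0.56, and with TSR2 at -0.10 and LTV1 at 0.07 (neither called).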

How the data were processed

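The authors deposited FPKM values for 26 libraries and 50308 genes. Per the file headers, each of the authors' comparison tables holds a signal (the mean of normalised counts), a log2 fold change, a test score and p-values. The submitters' processing notes name STAR 2.3.0e, featureCounts, Subread, DESeq2, FastQC and the human build hg19, so macaque reads were counted on human gene models. Annotation, strand setting and filters are not given in the sources used here.

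Tests used limma 3.58.1 in R 4.3.3 on log2(FPKM + 0.5), two-sided, with Benjamini-Hochberg adjustment over all genes tested. A gene needed 1 FPKM in 3 of the fitted libraries, or 2 where pools were fitted. Fold changes on this scale understate low genes. Whole reads were recovered from the FPKM steps for 42804 of 42804 genes above 0, within 0.0001 reads, and gave the depths. They are the smallest whole numbers in the observed ratios, so some may be too low by a common factor. The 2117 genes seen in 1 library only were set to 1 read there. Gene lengths derived from these reads were whole within 0.01 for 70.3% of genes. The fits were also run on simulated reads with the same spread setting for all genes and no shared animals. The outcome is not reported here. Python 3.11.15, numpy 2.4.6, pandas 2.3.3 and matplotlib 3.10.9 made the summaries and plots.

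Named members were the 10 largest called changes in each direction per tissue comparison, called members or the 5 smallest p-values in comparisons of times, and the 4 paralogs listed as tissue-restricted. Members and lists were chosen with earlier results of these data known, and the testis genes after their values were seen. The authors' tables of tissues against pools were not used here. The 24 pairs of libraries from 1 tissue and time all differed beyond counting noise (mean chi-square of 8.50 to 40.5 for each gene). Per the labels the 3 libraries of a group came from different animals. No sequences or positions are given, and a few genes the naming rule chose are not reported here.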

Additional observations from a re-analysis of the deposited data

How the results depend on the processing

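The number of members called between pineal gland and retina ran from 56 to 64 over the other settings, and from 56 to 58 with 1 library left out. With pseudogene reads added to each member, an alternative chosen after seeing the data, the median log2 difference was -0.51 between the tissues. For the retina against the pools it was -0.066. Between the tissues RPL17 reversed to -0.24 (limma adjusted p = 0.00654). RPL39 changed sign only, to -0.0033, and was no longer called (limma adjusted p = 0.966). Of the 43 results on single members followed under the alternatives, these were the 2 that changed sign. Members outside that set, such as RPLP2, RPSA and RPL41, were refitted in the same settings, but their single results are not reported here. Leaving out 1 library gave 16 to 31 members called for the retina against the pools, with 16 without the midnight pool, and 35 to 48 for the pineal gland. For dusk against dawn in pineal gland the count was 0 with a pseudocount of 0.1, with no filter and with the replicate block, and 0 to 1 with 1 library left out; midnight against dusk and the pineal F test also gave 0 to 1. Without retina dawn 2 and mid-day 1, 57 members were called between the tissues, and 57 without pineal dusk 3. Without pineal dusk 3, RPL14 remained called, at -1.53.

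The labels do not say that a replicate number marks an animal, so the numbers were not taken to pair the tissues: deviations of pineal and retina libraries with the same time and number correlated between -0.06 and 0.17, over 0.1 in 1 of 12 pairs. That 8 of 12 correlated best with their own number is a hint from the data, not the design, that some may share an animal. With the replicate block 56 members were called between the tissues. Depth limits members with few reads, such as those under 1 FPKM, and the cause of each change was not tested.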
